A study of Mus musculus with 18 samples.

Results

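The 10 genes described here encode survivin, 3 other inhibitor of apoptosis proteins (IAPs) and 6 BCL2 family proteins. They were picked by symbol from the 47729 genes of a colon RNA-Seq count table. Survivin (*Birc5*) was taken because the study measured its protein, and *Birc2*, *Birc3*, *Xiap*, *Bcl2*, *Bcl2l1*, *Mcl1*, *Bak1*, *Bid* and *Bcl2l11* as its relatives and as the BCL2 side of the same death pathway. All 10 were found in the table under 1 identifier each, and all 10 passed the filter on low counts in each comparison.

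The 9 mice whose colon RNA was sequenced formed 3 groups of 3. Control WT mice (mice 1, 2 and 3) carried no transgene and have the treatment label Control, which says no more. AOM-DSS WT mice (mice 4, 5 and 6) were WT mice given a single injection of azoxymethane (AOM), a colon carcinogen, at 10 mg/kg followed by 3 cycles of DSS (dextran sulfate sodium) at 2.5%, a polymer that injures the colonic epithelium when given in drinking water. AOM-DSS Claudin-2TG mice (mice 7, 8 and 9) had the same treatment and carried the Villin-*Cldn2*TG transgene, in which the villin promoter drives *Cldn2* in the intestinal epithelium. The labels give no age. There was no transgenic control group, so in the comparison of AOM-DSS Claudin-2TG with control WT mice the treatment and the transgene cannot be told apart.

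Apoptosis through mitochondria is set by the balance of BCL2 family proteins. BCL2, BCL-XL (encoded by *Bcl2l1*) and MCL1 bind and hold back the proteins that open the outer mitochondrial membrane, BAK (*Bak1*) and BAX. The BH3-only proteins BID and BIM (*Bcl2l11*) carry death signals and relieve that block. Once cytochrome c is released and caspases are active, XIAP inhibits caspases directly, while cIAP1 (*Birc2*) and cIAP2 (*Birc3*) are ubiquitin ligases that act mainly in TNF receptor and NF-κB signalling. Survivin carries the same BIR domain but is also a subunit of the chromosomal passenger complex, which works in mitosis, and its mRNA is made mainly in dividing cells. In the colon these are the cells of the lower crypt.

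Positions are given on the GRCm38 build. *Birc5* (ENSMUSG00000017716) is at chr11:117849251-117855743 on the plus strand. *Birc2* (ENSMUSG00000057367, chr9:7818227-7837064) and *Birc3* (ENSMUSG00000032000, chr9:7848699-7873186) follow each other on the minus strand. *Xiap* (ENSMUSG00000025860) is on the X chromosome at chrX:42059679-42109656. The anti-apoptotic genes are *Bcl2* (ENSMUSG00000057329, chr1:106538178-106714274), *Bcl2l1* (ENSMUSG00000007659, chr2:152780668-152831728) and *Mcl1* (ENSMUSG00000038612, chr3:95658788-95663176). *Bak1* (ENSMUSG00000057789) is at chr17:27019810-27029009, *Bid* (ENSMUSG00000004446) at chr6:120891930-120916853 and *Bcl2l11* (ENSMUSG00000027381) at chr2:128126038-128162547. Exons of 3 of them overlap exons of a gene on the other strand, namely *Bcl2* with D630008O14Rik over 558 bases (6.09% of its exon length), *Bak1* with *Ggnbp1* over 357 bases (14.8%) and *Bid* with *Bcl2l13* over 628 bases (17.7%). Whether the counting used strand is not given in the sources used here, so counts in those bases are uncertain.

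Each mouse had between 14142711 and 22262546 counts on genes, so that 3 counts, taken as the detection limit, correspond to 0.135 to 0.212 CPM, a count scaled to a fixed library total. The lowest value of any of the 10 genes in any mouse was 10.7 CPM, for *Bcl2*. The transgene label was checked with *Cldn2* itself, which stood at 119, 137 and 132 CPM in the AOM-DSS WT mice and at 208, 218 and 251 CPM in the AOM-DSS Claudin-2TG mice. *Cldn2* was higher in the transgenic mice by 0.78 on the log2 scale (SE 0.12, adjusted p = 0.0103, edgeR). The control WT mice had 191, 259 and 245 CPM, so the transgenic mice were not above the control WT level. Control mouse 1 carried *Xist*, at 214 CPM against at most 0.203 CPM in the other 8 mice, and its 4 Y-linked genes read stood at 0.199 CPM or less. It thus differed in sex from the other 8. Leaving it out changed no call among the 10 genes. Of the related genes, the calls of *Birc6*, *Bax*, *Bbc3*, *Bnip3l*, *Aurkb*, *Ccna2*, *Bub1b*, *Cenpe*, *Kif20a*, *Nusap1*, *Foxm1*, *Traf2* and *Map3k14* in AOM-DSS WT against control WT mice were lost without it, as were those of *Bok*, *Bnip3l*, *Incenp*, *Top2a*, *Bub1*, *Mcm5*, *Mcm6* and *Rrm1* in transgenic against control WT mice. These calls of the first comparison were also lost without mouse 2 and without mouse 3. Those of the second were each also lost without mouse 2 or without mouse 3. Without mouse 1, 2 and 3 the share of all genes called fell from 15.0% to 3.96%, 0.847% and 2.55% in the first comparison. In the second it fell from 10.0% to 6.25%, 7.16% and 3.44%. The part of sex in these losses was not tested.

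The bulk tissue held other cells than epithelium, and the summed levels of their markers differed between groups. Summed over their marker genes, macrophages stood at 25.5 to 37.1 CPM in control WT, 58.3 to 146 in AOM-DSS WT and 20 to 34.5 in AOM-DSS Claudin-2TG mice. In the same order of groups, T cells stood at 2.54 to 6.69, 12.9 to 26.0 and 3.50 to 6.80, B cells at 3.77 to 32.9, 26.8 to 51.9 and 3.10 to 19.2, and plasma cells at 572 to 604, 668 to 1090 and 529 to 668. Within the plasma cell sum *Sdc1* and *Xbp1* were called in no comparison, while *Jchain* had means of 55.8, 335 and 51.6 CPM and *Mzb1* of 1.65, 7.37 and 1.51. Neutrophil markers summed to 137 to 208, 300 to 378 and 302 to 351, nearly all of it *Ly6g*. Without that gene the neutrophil markers were near 0 in transgenic mice, as *S100a8* at 0.138, 0.203 and 0 CPM against 0.559, 18.5 and 13.4 in AOM-DSS WT mice. In the same order of groups, fibroblast markers stood at 292 to 422, 446 to 1119 and 181 to 260, and endothelial markers at 32.9 to 43.6, 36.1 to 49.1 and 20.1 to 22.9. Smooth muscle markers ran from 1954 to 3966, 1036 to 2875 and 939 to 1452, and epithelial markers from 20543 to 21756, 19828 to 25965 and 21980 to 26936. Of the 6 macrophage markers 5 were called higher in AOM-DSS WT than in control WT mice, and 5 lower in transgenic than in AOM-DSS WT mice, beside 8.04% of all genes called higher and 7.35% called lower. All 5 lower calls were lost without mouse 8 and without mouse 9, where 0.382% and 0.685% of all genes were called, and all 5 higher calls without mouse 1, mouse 2 or mouse 3. No calls are counted for T cell markers, some of which passed the filter on low counts only through the AOM-DSS WT mice. No marker gene was at 0 in every mouse, and all 8 epithelial markers were detected. Mouse 4 stood apart within the AOM-DSS WT group. Its chi-square over genes, divided by the degrees of freedom, was 66.3 against mouse 5 and 65.3 against mouse 6, while mice 5 and 6 gave 31.9 between them. It had the lowest macrophage and T cell sums (58.3 and 12.9) and the highest B cell and smooth muscle sums (51.9 and 2875) of its group. In such tissue a lower value can mean fewer cells of a type or less RNA per cell, which cannot be told apart.

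Per kilobase of exon, *Mcl1* was by far the most abundant of the 10 mRNAs, at 135 ± 15.8 (SD, n = 3) CPM per kb in control WT mice, 171 ± 34.5 in AOM-DSS WT and 211 ± 11.1 in AOM-DSS Claudin-2TG mice. *Bak1*, its direct partner on mitochondria, was next with 48.1 ± 6.52, 54.1 ± 7.90 and 45.7 ± 2.76. *Bcl2l1* (14.9 ± 1.80, 20 ± 5.68 and 13.0 ± 1.66), *Birc3* (16.8 ± 0.982, 13.3 ± 1.58 and 15.6 ± 2.37), *Birc5* (13.1 ± 1.5, 9.76 ± 2.53 and 11.8 ± 2.55) and *Xiap* (11.5 ± 0.148, 9.52 ± 0.965 and 10.5 ± 0.453) formed a middle set. Within it, *Bcl2l1* and *Birc3* overlapped in every group, while *Birc5* lay above *Xiap* in the control WT mice (11.7 to 14.7 against 11.4 to 11.6) and overlapped with it after treatment. *Birc2* and *Bid* overlapped in every group, with means over all 9 mice of 7.21 and 7.14 CPM per kb. *Bcl2l11* and *Bcl2* closed the order with 2.02 and 1.37. These 2 overlapped in the AOM-DSS WT mice only, at 1.55 to 2.88 against 1.31 to 1.81.

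**Figure D1:**
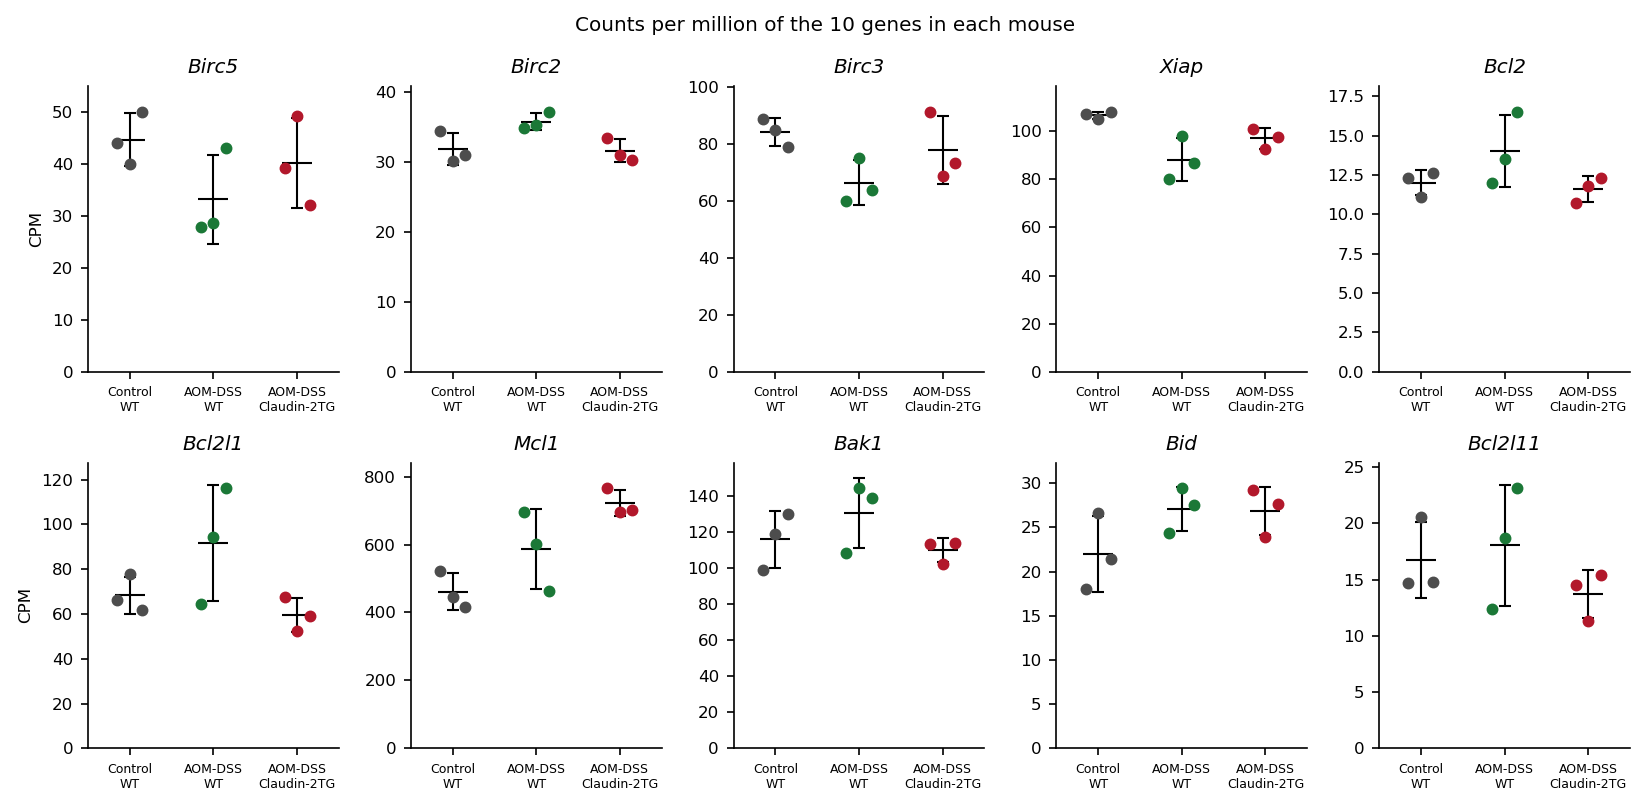
TMM-scaled CPM of each gene (y axis, from 0) in the 3 mice of each group (x axis). Points are mice, the horizontal bar is the mean and the whiskers are 1 SD. *Mcl1* reads 696 to 765 CPM in all 3 AOM-DSS Claudin-2TG mice and 416 to 521 in control WT mice, whereas the groups of *Birc5* overlap.

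Survivin was measured first because the study followed its protein. *Birc5* mRNA stood at 44.0, 39.9 and 50.0 CPM in control WT mice, at 27.9, 28.6 and 43.1 CPM in AOM-DSS WT mice and at 39.3, 49.3 and 32.1 CPM in AOM-DSS Claudin-2TG mice. AOM-DSS WT mice 4 and 5 were below every other mouse, mouse 6 lay within the control range, and the transgenic mice spanned nearly the whole range of the other 2 groups. In AOM-DSS WT against control WT mice *Birc5* had a log2 fold change of -0.40 (SE 0.19, 95% interval -0.84 to 0.035), which did not pass the test (adjusted p = 0.183, edgeR's quasi-likelihood test over all genes). The value changed with single mice. Without mouse 6 it was -0.64 (adjusted p = 0.0402), the only alternative that passed. That fit called 6.72% of all genes, beside 15.0% with all mice. Without mouse 3, 4 or 5 the value was -0.33, -0.30 and -0.30. In AOM-DSS Claudin-2TG against AOM-DSS WT mice the log2 fold change was 0.26 (SE 0.22, interval -0.23 to 0.75, adjusted p = 0.559), and over the alternatives it ran from 0.10 to 0.50 without passing the test. Against control WT mice the transgenic mice differed by -0.14 (SE 0.15, interval -0.48 to 0.20, adjusted p = 0.602). The exact two-sided permutation tests of the 3 comparisons gave p = 0.200, 0.300 and 0.400, where 3 mice against 3 cannot go below 0.1.

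The genes whose course over the 9 mice was nearest to that of *Birc5* were looked up among 14479 genes tested in all comparisons, by the root mean square difference of their log2 CPM after each gene's mean was removed. They were *Cdk1*, the kinase that starts mitosis (0.0913 log2 units), *H2afx*, a histone H2A variant (0.0940), *Cdca8*, which encodes borealin, a partner of survivin in the chromosomal passenger complex (0.0951), *Ube2c*, a ubiquitin-conjugating enzyme of mitotic exit (0.0968), and *Tk1*, a nucleotide salvage enzyme (0.104). Like *Birc5*, *Cdk1* had its lowest mean in AOM-DSS WT mice (39.4 ± 10.9 CPM, SD, n = 3), against 59.1 ± 7.62 in control WT and 46.9 ± 9.31 in transgenic mice. This likeness is a description over mice that share groups, and it was not tested.

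The other subunits of the chromosomal passenger complex and a list of 20 genes of G2 and mitosis were read beside *Birc5*. *Aurkb*, the kinase of the complex, stood at 35.9, 31.2 and 39.6 CPM in control WT mice and fell to 19.2, 18.7 and 28.1 in AOM-DSS WT mice (log2 fold change -0.67, SE 0.19, adjusted p = 0.0484), with 29.2, 31.6 and 21.9 in the transgenic mice. This call was narrow, as it held in 5 of 14 alternatives and was lost without mouse 1, 2, 3, 4 or 5. *Incenp*, the scaffold, differed by -0.53 in AOM-DSS WT against control WT mice (adjusted p = 0.0508) and fell by 0.50 in transgenic against control WT mice (adjusted p = 0.0381), which was lost without mouse 1, 3, 7 or 9. *Cdca8* passed in neither, at -0.31 and -0.18 (adjusted p = 0.417 and 0.610). Of the 20 G2 and mitosis genes all had a log2 fold change below 0 in AOM-DSS WT against control WT mice, and 9 were called lower where 15.0% of all 15437 genes tested were called in either direction and 6.92% lower. The median of the 20 was -0.72, beside 0.021 over all genes. The macrophage and T cell sums given above, and the neutrophil sum that is nearly all *Ly6g*, were higher in the same mice. Their part in this result was not tested. *Mki67* (-0.93, adjusted p = 0.0116), *Kif11* (-1.05, 0.0130), *Cenpf* (-0.97, 0.0204) and *Foxm1* (-0.85, 0.0173) were among the 9. Leaving out mouse 1, 2, 3 or 5 left 3, 0, 1 and 3 of the 20 called, where the share of all genes called fell to 3.96%, 0.847%, 2.55% and 7.90%. Without mouse 4 and mouse 6 the count was 9 and 14, beside 25.7% and 6.72% of all genes. *Mki67* lost its call without mouse 2 only.

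In AOM-DSS Claudin-2TG against AOM-DSS WT mice all 20 of these genes had a log2 fold change above 0, with a median of 0.28, and 0 were called by edgeR, with 5 at an unadjusted p under 0.05 and 3 called by DESeq2. Of all 14888 genes edgeR called 9.54% either way and 2.19% higher, 23.5% were at an unadjusted p under 0.05 and DESeq2 called 13.9%. *Ccnb2* (0.62, adjusted p = 0.0744), *Cenpf* (0.65, 0.0831) and *Mki67* (0.62, 0.0899) came nearest to the threshold. The macrophage, T cell, B cell, fibroblast and endothelial sums were lower in these transgenic than in AOM-DSS WT mice, and their part was not tested. Compared with control WT mice, the transgenic mice had all 20 below 0, with a median of -0.41, and *Top2a* (-0.59), *Bub1* (-0.67), *Kif11* (-0.58) and *Kif20a* (-0.85) were called lower, where 10.0% of 15013 genes were called either way and 6.07% lower. All 4 of these calls were lost without mouse 3, without mouse 9 and with all 9 mice in 1 fit, and 2 of the 20 genes were called without mouse 1, 2 or 7. The smooth muscle, fibroblast and endothelial sums given above were lower in transgenic than in control WT mice, and their part in this result was not tested. The first 2 of these comparisons share the AOM-DSS WT mice, so their opposite signs are not independent. *Birc5* had the same sign as the 20 genes in each comparison, with sizes (-0.40, 0.26 and -0.14) below the medians of the list.

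**Figure D2:**
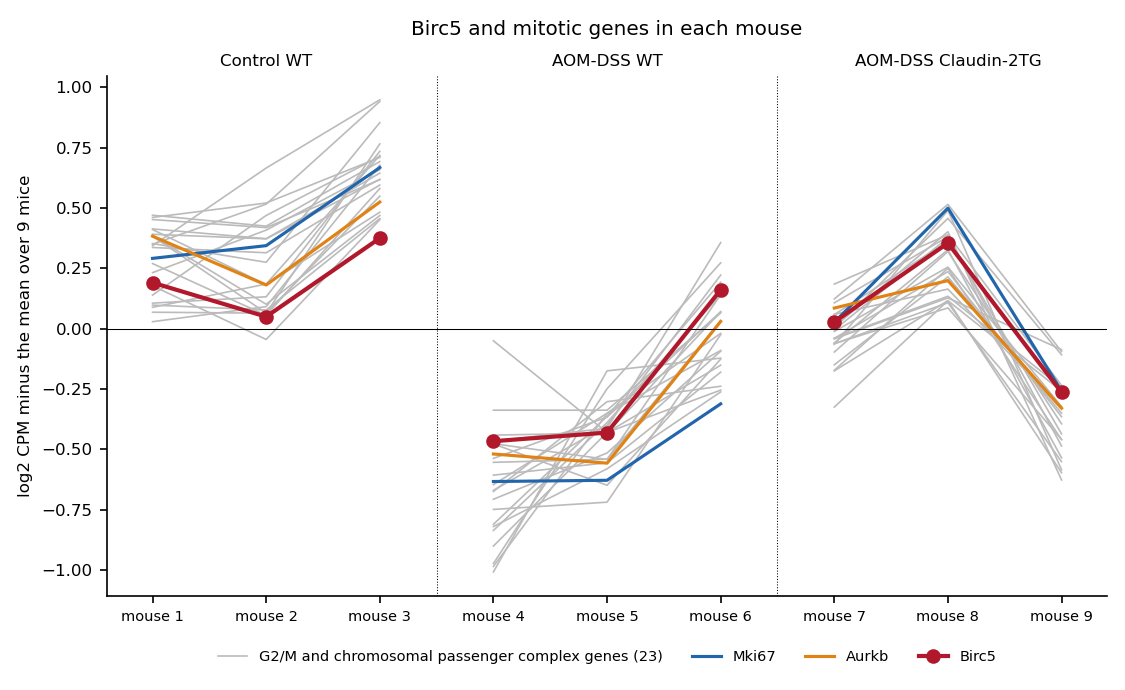
log2 CPM minus the mean of each gene over the 9 mice (y axis) by mouse (x axis), for *Birc5* (red), *Mki67* (blue), *Aurkb* (orange) and the 23 genes of G2, mitosis and the chromosomal passenger complex (grey). Lines join mice of a group and carry no order. The 3 coloured lines are lowest in mice 4 and 5 and, among transgenic mice, in mouse 9, and *Birc5* has a narrower course than *Mki67* (27.9 to 50.0 CPM against 84.8 to 209 CPM).

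Within each mouse the ratio of *Birc5* to *Mki67* per kilobase was lowest in control WT mice (log2 ratios -0.30, -0.50 and -0.49), highest in AOM-DSS WT mice (-0.039, -0.0082 and 0.27) and between them in the transgenic mice (-0.20, -0.35 and -0.21). The control and transgenic ranges overlapped and the AOM-DSS WT range lay above both. The ratio of *Birc5* to *Aurkb* was 0.088, 0.14 and 0.13 in control WT, 0.33, 0.40 and 0.41 in AOM-DSS WT and 0.22, 0.44 and 0.34 in transgenic mice, so that both treated groups were above the control range. The ratio to *Cdca8* had overlapping groups throughout, with means of 0.82, 0.74 and 0.87. The ratio to *Incenp* ranked the groups differently, at -0.45, -0.36 and -0.33 in control WT, -0.36, -0.32 and -0.13 in AOM-DSS WT and 0.13, 0.011 and -0.23 in transgenic mice, which here were all above the control mice. These ratios were chosen after the values were seen and are given without a test.

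Genes of this late cell cycle class often carry a CCAAT box and a cell cycle genes homology region (CHR) near their start. The 250 bases upstream of the annotated RefSeq start (GRCm38.p6) are shown for *Birc5* and for those of its nearest genes that have an entry. The windows depend on which start is annotated, so they cannot show whether the starts of these genes are alike. *H2afx* has no entry. Capitals mark the CHR (TTTGAA), the CCAAT box (CCAAT) and a κB consensus (the capitals of the *Birc5* line), each searched on both strands, and CCAATTGG in *Ube2c* is a CCAAT box on both strands that overlap. Each runs 5′ to 3′ on the strand of the gene.

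Birc5 (chr11:117848987-117849236, plus strand): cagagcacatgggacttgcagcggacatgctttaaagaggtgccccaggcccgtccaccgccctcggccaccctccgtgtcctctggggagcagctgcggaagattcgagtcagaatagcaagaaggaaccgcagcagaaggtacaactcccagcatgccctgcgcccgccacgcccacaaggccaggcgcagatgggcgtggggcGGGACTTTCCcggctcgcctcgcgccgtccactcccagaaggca
Cdk1 (chr10:69352913-69353162, minus strand): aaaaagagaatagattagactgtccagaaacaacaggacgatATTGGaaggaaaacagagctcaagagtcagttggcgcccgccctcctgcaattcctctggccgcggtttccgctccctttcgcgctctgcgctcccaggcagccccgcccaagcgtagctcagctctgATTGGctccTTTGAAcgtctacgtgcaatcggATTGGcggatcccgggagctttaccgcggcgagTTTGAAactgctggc
Cdca8 (chr4:124936918-124937167, minus strand): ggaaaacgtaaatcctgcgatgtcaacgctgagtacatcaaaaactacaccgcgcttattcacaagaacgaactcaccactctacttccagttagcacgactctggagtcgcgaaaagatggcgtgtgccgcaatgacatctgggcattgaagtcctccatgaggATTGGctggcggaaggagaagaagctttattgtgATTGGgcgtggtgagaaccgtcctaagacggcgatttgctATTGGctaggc
Ube2c (chr2:164769679-164769928, plus strand): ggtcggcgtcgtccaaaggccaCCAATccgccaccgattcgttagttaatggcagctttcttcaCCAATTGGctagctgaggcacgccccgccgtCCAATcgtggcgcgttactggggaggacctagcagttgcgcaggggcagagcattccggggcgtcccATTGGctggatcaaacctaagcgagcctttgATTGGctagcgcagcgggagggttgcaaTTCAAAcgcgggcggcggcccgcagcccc
Tk1 (chr11:117826015-117826264, minus strand): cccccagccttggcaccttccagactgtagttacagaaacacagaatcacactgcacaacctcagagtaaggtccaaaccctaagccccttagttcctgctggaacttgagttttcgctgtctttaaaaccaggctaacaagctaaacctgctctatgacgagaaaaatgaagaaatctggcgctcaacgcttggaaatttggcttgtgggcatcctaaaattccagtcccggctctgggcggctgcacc

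*Cdk1* held 2 CHR and 3 CCAAT matches, *Ube2c* 1 and 6, and *Cdca8* 0 and 3. *Tk1* and *Birc5* held neither. Of all 32851 mouse windows of this length, 16.0% held a CHR match and 33.8% a CCAAT match. Among the G2, mitosis and chromosomal passenger genes with an entry, 16 of 17 held a CCAAT match and 7 of 17 a CHR match. The window of *Birc5* is set by an upstream start. GENCODE lists 2 *Birc5* transcripts, and a CHR match lies 65 bases past the RefSeq start and 18 bases before the start of the other transcript, at chr11:117849301-117849306, shown here with 9 bases on each side:

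Birc5 CHR match: cccgcgcgaTTTGAAtcctgcgtt

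The *Birc5* window also held 1 κB consensus, 44 bases before the RefSeq start, a sequence found in 46 of the 32851 windows (0.140%). This motif was searched after the sequence had been seen. Across the 10 genes, 3 had a CHR match in at least 1 of their windows (*Xiap*, *Bcl2* and *Mcl1*) and 1 a CCAAT match (*Bcl2l11*). A match is a description of letters and not a bound site.

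The other IAPs were compared next. In AOM-DSS WT against control WT mice, 0 of the 10 genes were called by edgeR, with 2 (*Birc3* and *Xiap*) at an unadjusted p under 0.05 and 0 called by DESeq2. The test called 15.0% of all genes tested (8.04% higher, 6.92% lower), and an unadjusted p under 0.05 was found for 32.6%. Groups did not overlap for 3 of the 10 (*Birc2*, *Birc3* and *Xiap*), beside 38.0% of all genes, and were lower for 2 of the 10, beside 20.3%. *Birc3* stood at 88.8, 84.8 and 79.0 CPM in control WT mice, 60.0, 75.3 and 64.0 in AOM-DSS WT mice and 91.3, 68.9 and 73.4 in transgenic mice. All 3 AOM-DSS WT mice were below the lowest control mouse, and transgenic mice spread over both. The log2 fold change was -0.32 (SE 0.12, interval -0.59 to -0.046, adjusted p = 0.105) for AOM-DSS WT against control WT mice. It was 0.21 (SE 0.15, adjusted p = 0.484) for transgenic against AOM-DSS WT mice.

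*Birc2*, the neighbour of *Birc3* on chromosome 9, read the other way. Its levels were 34.4, 30.1 and 31.0 CPM in control WT, 34.8, 35.2 and 37.1 in AOM-DSS WT and 33.4, 30.9 and 30.3 in transgenic mice. The AOM-DSS WT mice lay above all others, by little between mouse 4 and control mouse 1, and control and transgenic mice overlapped. Neither the log2 fold change of 0.19 against control WT mice (SE 0.11, adjusted p = 0.267) nor that of -0.20 for transgenic against AOM-DSS WT mice (SE 0.12, adjusted p = 0.364) passed the test. Of the 10 genes *Birc2* varied least, by 1.23-fold between its highest and lowest mouse. Within each mouse the log2 ratio of *Birc3* to *Birc2* per kilobase was 1.24, 1.37 and 1.22 in control WT, 0.66, 0.97 and 0.66 in AOM-DSS WT and 1.32, 1.03 and 1.15 in transgenic mice. The AOM-DSS WT mice were below the other 6 in this ratio, which was chosen after the values were seen and has no test.

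*Xiap*, the direct caspase inhibitor, was steady in control WT mice at 107, 105 and 108 CPM. It stood at 80.2, 97.9 and 86.6 CPM in AOM-DSS WT mice and at 101, 92.6 and 97.5 CPM in transgenic mice. Both treated groups were below all control mice and overlapped with each other. The log2 fold change in AOM-DSS WT against control WT mice was -0.25 (SE 0.11, interval -0.49 to -0.0050, adjusted p = 0.146), and in transgenic against control WT mice -0.13 (SE 0.089, adjusted p = 0.384). *Xiap* is X-linked, and control mouse 1, which differed in sex, read the same as the other 2 control mice.

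Outside the 10 genes, the giant IAP gene *Birc6* (BRUCE) was called lower in AOM-DSS WT against control WT mice. It stood at 97.5, 97.6 and 98.6 CPM in control WT, 75.1, 78.0 and 67.4 in AOM-DSS WT and 76.1, 80.4 and 84.3 in transgenic mice. The log2 fold change was -0.39 (SE 0.10, adjusted p = 0.0379) for AOM-DSS WT and -0.28 (SE 0.089, adjusted p = 0.0723) for transgenic against control WT mice. The call for AOM-DSS WT held in 8 of 14 alternatives and was lost without mouse 1, 2, 3, 5 or 6. The 4 *Naip* genes, cytosolic sensors of bacterial proteins that carry BIR domains, were not called in any comparison or under any of its 14 alternatives, DESeq2 included, and as near copies of each other their counts are uncertain. *Naip1* and *Naip2*, at 181 and 108 CPM over all mice, were the most abundant of this list. *Naip5* alone of the 4 was at an unadjusted p under 0.05, in AOM-DSS WT against control WT (0.37, adjusted p = 0.121) and transgenic against AOM-DSS WT mice (-0.39, adjusted p = 0.168). *Birc7* had no count in any mouse.

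The cIAPs act with TRAF2, TRAF3 and the kinase NIK (*Map3k14*), which they hold at a low level. Of 12 genes of this circuit, *Traf2* rose from 32.9, 29.8 and 29.5 CPM in control WT to 41.6, 41.2 and 44.4 in AOM-DSS WT mice (log2 fold change 0.49, SE 0.11, adjusted p = 0.0262). *Map3k14* rose from 9.51, 8.74 and 9.42 to 14.8, 14.2 and 12.7 CPM (0.62, SE 0.15, adjusted p = 0.0308). These 2 of the 12 were called in that comparison, where 15.0% of all genes were called, and both calls were lost without mouse 1, 2, 3 or 6, and that of *Map3k14* also without mouse 5. Between the treated groups *Tnfrsf1b*, the gene of TNF receptor 2, was called lower in transgenic mice (-1.55, SE 0.38, adjusted p = 0.0462), from 39.6, 128 and 89.4 CPM to 27.9, 29.9 and 31.0. The call was lost without mouse 5, 6, 7, 8 or 9. TNF receptor 2 is known from lymphocytes and macrophages, and the macrophage and T cell sums were lower in these mice too. Their part in this result was not tested. Between transgenic and control WT mice *Nfkbia*, the NF-κB inhibitor, was called lower (-0.51, SE 0.11, adjusted p = 0.0181), a call lost without mouse 3 or 9. *Tnfrsf1a*, at 109 CPM over all mice the most abundant of the 12, passed in no comparison.

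**Figure D3:**
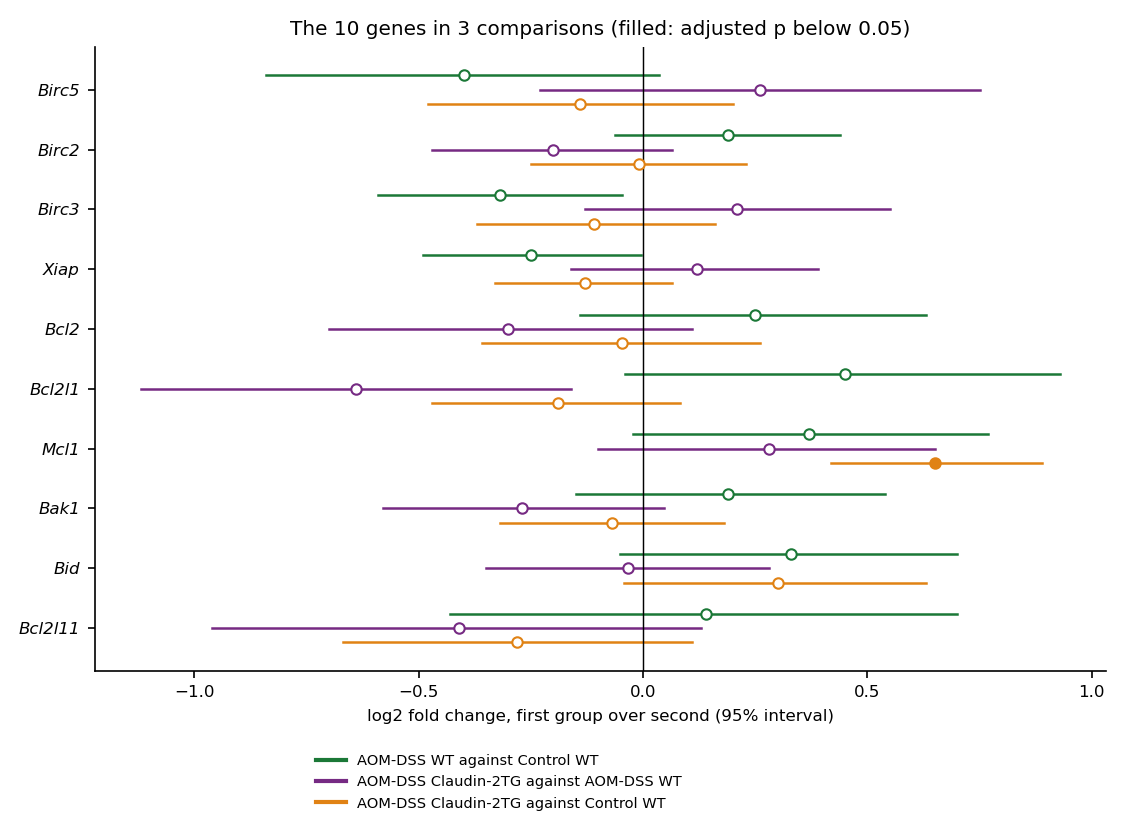
log2 fold change (x axis) of each of the 10 genes (y axis) in the 3 comparisons, with 95% intervals. Filled points have an adjusted p below 0.05. The 1 filled point is *Mcl1* in AOM-DSS Claudin-2TG against control WT mice (0.65, interval 0.42 to 0.89), and *Bcl2l1* in AOM-DSS Claudin-2TG against AOM-DSS WT mice (-0.64, interval -1.12 to -0.16) is the largest negative value.

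*Mcl1* was the 1 gene of the 10 called in any comparison. MCL1 is a short-lived anti-apoptotic protein whose mRNA turns over quickly. Its mRNA stood at 521, 445 and 416 CPM in control WT mice, at 696, 601 and 462 CPM in AOM-DSS WT mice and at 765, 696 and 703 CPM in AOM-DSS Claudin-2TG mice. All 3 transgenic mice were above every control mouse, mouse 4 of the AOM-DSS WT group was level with the transgenic mice, and mouse 6 lay in the control range. *Mcl1* was 1.57-fold higher in transgenic than in control WT mice (log2 fold change 0.65, SE 0.11, interval 0.42 to 0.89, adjusted p = 0.00599), and higher in 3 of 3 mice. In that comparison 10.0% of all genes were called and 3.92% called higher, and 1 of the 10 genes was. DESeq2 called *Mcl1* alone of the 10 as well. Other measures moved with this call. Mitochondrial genes took 2.86% to 3.50% of the counts in control WT and 4.57% to 5.76% in transgenic mice, and 4.69%, 3.54% and 4.49% in AOM-DSS WT mice 4, 5 and 6, whose *Mcl1* was 696, 601 and 462 CPM. The 10 most abundant genes took 6.58% to 7.33% in control WT, 8.17% to 9.45% in AOM-DSS WT and 8.19% to 10.0% in transgenic mice. All 6 smooth muscle markers were lower in transgenic than in control WT mice at an unadjusted p under 0.05, where 26.0% of all genes were, and 2 of them were called, with sums of 939 to 1452 against 1954 to 3966 CPM. Of the 5 endothelial markers 4 were called lower, beside 6.07% of all genes, with sums of 20.1 to 22.9 against 32.9 to 43.6 CPM, and the fibroblast sums were 181 to 260 against 292 to 422 CPM. The call of *Cdh5* held in 14 of 14 alternatives. That of *Pecam1* was lost without mouse 2, 8 or 9. That of *Kdr* was lost without mouse 1, 2, 3, 7 or 8, with all 9 mice in 1 fit and on lane 1 only. That of *Tie1* was lost in the 1 fit over all 9 mice and on lane 2 only. The smooth muscle calls, *Myh11* and *Acta2*, were both lost in that fit, and *Myh11* also without mouse 1, 3 or 7. The part of these measures in the *Mcl1* result was not tested. The *Mcl1* call held in 13 of 14 alternatives, including each that left out 1 mouse, and was lost when all 9 mice shared 1 fit (adjusted p = 0.0518). In AOM-DSS WT against control WT mice the log2 fold change was 0.37 (SE 0.17, adjusted p = 0.173). In transgenic against AOM-DSS WT mice it was 0.28 (SE 0.17, interval -0.10 to 0.65, adjusted p = 0.375), so the transgenic and WT mice under treatment were not shown to differ. Without mouse 4 it was 0.43 (adjusted p = 0.0751) and without mouse 6 it was 0.14 (adjusted p = 0.708).

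The genes with a course nearest to that of *Mcl1* were *Sp3os* (0.0989 log2 units), *Ccdc122* (0.105), *Nufip2* (0.110), *Osgin1*, an oxidative stress induced gene (0.118), and *Pcf11*, a factor of mRNA 3′ end cleavage (0.122). Like *Mcl1*, all 5 had their lowest mean in control WT and their highest in transgenic mice, as *Nufip2* with 36.3 ± 3.28, 49.6 ± 5.85 and 58.8 ± 3.41 CPM (SD, n = 3). This order follows from how the genes were picked, and the likeness was not tested.

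*Bcl2l1*, the gene of BCL-XL, moved most in the other direction between the treated groups. It stood at 66.1, 77.6 and 61.6 CPM in control WT, 64.4, 94.2 and 116 in AOM-DSS WT and 67.4, 52.2 and 59.2 in transgenic mice. AOM-DSS WT mice 5 and 6 were above all other mice, while mouse 4 lay among the control and transgenic mice. In transgenic against AOM-DSS WT mice the log2 fold change was -0.64 (SE 0.21, interval -1.12 to -0.16), which missed the threshold in edgeR (adjusted p = 0.0988) and passed it in DESeq2 (adjusted p = 0.0394). Of the 10 genes, 0 were called by edgeR in this comparison, 1 (*Bcl2l1*) was at an unadjusted p under 0.05 and 1 (*Bcl2l1*) was called by DESeq2, where edgeR called 9.54% of all genes and 7.35% lower, 23.5% were at an unadjusted p under 0.05 and DESeq2 called 13.9%. The value moved with mice 4 and 6 in opposite directions. Without mouse 6 the log2 fold change was -0.41 (adjusted p = 0.283) in transgenic against AOM-DSS WT mice and 0.23 (adjusted p = 0.463) in AOM-DSS WT against control WT mice. Without mouse 4 *Bcl2l1* was called lower in transgenic mice (-0.83, adjusted p = 0.00502) and called higher in AOM-DSS WT against control WT mice (0.64, adjusted p = 0.0162), where with all mice it was 0.45 (SE 0.21, adjusted p = 0.184). Calls over all genes moved too. In transgenic against AOM-DSS WT mice 19.2% were called without mouse 4 and 5.19% without mouse 6, beside 9.54% with all mice. In AOM-DSS WT against control WT mice these shares were 25.7% and 6.72%, beside 15.0%. Mouse 4 was at an end of its group in the macrophage, T cell, B cell and smooth muscle sums given above, and their part in the *Bcl2l1* values was not tested.

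*Bcl2*, the gene that names the family, was low in all groups, at 12.3, 11.1 and 12.6 CPM in control WT, 12.0, 13.5 and 16.5 in AOM-DSS WT and 10.7, 11.8 and 12.3 in transgenic mice. The 3 groups overlapped. The log2 fold changes were 0.25 for AOM-DSS WT against control WT mice (SE 0.17, adjusted p = 0.339), -0.30 for transgenic against AOM-DSS WT mice (SE 0.18, adjusted p = 0.381) and -0.048 for transgenic against control WT mice (SE 0.14, adjusted p = 0.864). BCL2 protein is abundant in lymphocytes. The T and B cell sums were 12.9 and 51.9 CPM in mouse 4, 26.0 and 26.8 in mouse 5 and 17.6 and 45.3 in mouse 6, the highest mouse for *Bcl2*, and their part in the *Bcl2* values was not tested.

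Among other anti-apoptotic genes *Bcl2l2* (BCL-W), at 67.2 CPM over all mice, differed in no comparison by more than 0.11 on the log2 scale and was not called. The *Bcl2a1* genes, known from leukocytes, were near the detection limit outside the AOM-DSS WT mice. *Bcl2a1d* read 0.149, 0.151 and 0.130 CPM in control WT, 1.12, 2.03 and 2.21 in AOM-DSS WT and 0.276, 0.152 and 0 in transgenic mice. *Bcl2a1a* read at most 0.199 CPM in control WT and at most 0.101 in transgenic mice, and 0.508, 0.619 and 1.07 in AOM-DSS WT mice. No fold or test is given, because these genes passed the filter on low counts only through the AOM-DSS WT mice, and as near-identical copies they cannot be counted apart with certainty. The macrophage and T cell sums were also highest in the AOM-DSS WT mice, and their part was not tested.

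**Figure D4:**
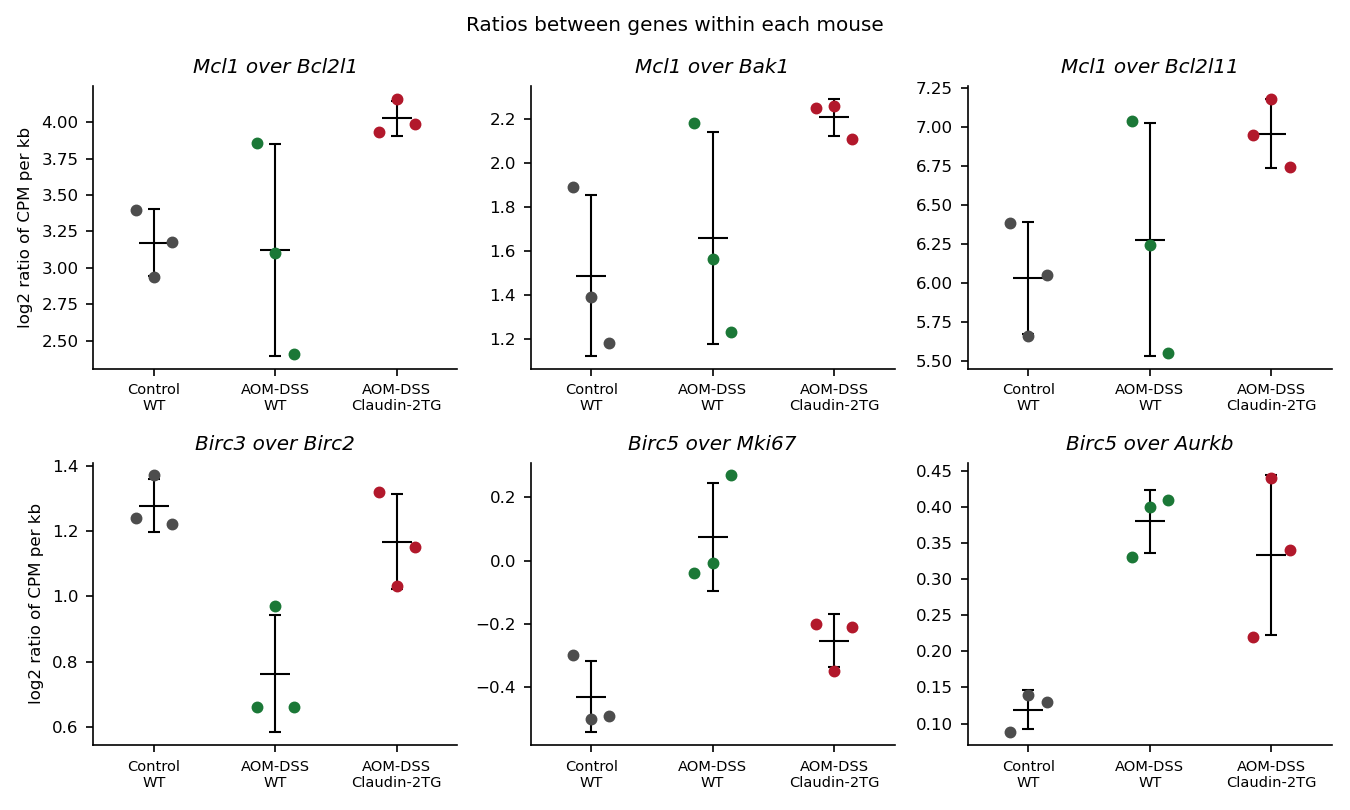
log2 ratio of CPM per kilobase (y axis) between pairs of genes within each mouse, by group (x axis). Points are mice, bars the mean and whiskers 1 SD. The y axes do not start at 0. *Mcl1* over *Bcl2l1* reads 3.93 to 4.16 in transgenic and 2.94 to 3.40 in control WT mice, with AOM-DSS WT mouse 4 at 3.86 near the transgenic range.

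Of the genes that open the mitochondrial membrane, *Bak1* stood at 98.7, 119 and 130 CPM in control WT, 108, 144 and 139 in AOM-DSS WT and 113, 102 and 114 in transgenic mice. The groups overlapped, and the log2 fold changes of 0.19, -0.27 and -0.069 did not pass the test (adjusted p = 0.401, 0.300 and 0.737). *Bax*, which acts beside *Bak1* and is also a p53 target, was called higher in AOM-DSS WT against control WT mice, at 76.1, 66.2 and 96.4 CPM against 53.8, 46.1 and 46.6 (log2 fold change 0.73, SE 0.16, adjusted p = 0.0255), a call that held in 11 of 14 alternatives and was lost without mouse 1, 2 or 3. In transgenic mice it read 51.2, 71.7 and 81.6 CPM, and the difference from control WT mice was 0.49 (SE 0.16, adjusted p = 0.0820, edgeR). DESeq2 called *Bax* in that comparison, where it called 11.9% of all genes. *Bok*, the remaining pore-forming member, was called lower in transgenic against control WT mice, at 31.6, 31.6 and 35.2 CPM against 44.2, 54.6 and 40.8 (-0.50, SE 0.12, adjusted p = 0.0306), which held in 7 of 14 alternatives and was lost without mouse 1, 2, 7, 8 or 9. Between the treated groups edgeR called neither *Bax* nor *Bok*, beside 9.54% of all genes. DESeq2 called 1 of these 2, beside 13.9%.

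*Mcl1* was also set against its partners within each mouse. The log2 ratio of *Mcl1* to *Bak1* per kilobase was 1.49 ± 0.37 (SD, n = 3) in control WT, 1.66 ± 0.48 in AOM-DSS WT and 2.21 ± 0.084 in transgenic mice. That of *Mcl1* to *Bcl2l1* was 3.18 ± 0.23, 3.12 ± 0.72 and 4.03 ± 0.12, so that *Mcl1* exceeded *Bcl2l1* 9.04-fold in control WT and 16.3-fold in transgenic mice. That of *Mcl1* to *Bcl2l11* was 6.03 ± 0.36, 6.28 ± 0.74 and 6.96 ± 0.22. In each ratio all transgenic mice lay above all control mice, and AOM-DSS WT mouse 4 read 2.18, 3.86 and 7.04, close to the transgenic mice. The ratios were chosen after the values were seen and are given without a test.

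The BH3-only members varied more between mice than between groups. *Bid*, which is cut by caspase-8 and carries death receptor signals to mitochondria, stood at 18, 26.6 and 21.4 CPM in control WT, 24.4, 29.4 and 27.5 in AOM-DSS WT and 29.2, 23.9 and 27.6 in transgenic mice. Control mouse 2 lay within both treated ranges. The log2 fold changes against control WT mice were 0.33 (SE 0.16, adjusted p = 0.208) and 0.30 (SE 0.15, adjusted p = 0.249), and -0.034 (SE 0.14, interval -0.35 to 0.28) between the treated groups. *Bcl2l11*, the gene of BIM, stood at 14.7, 20.6 and 14.8 CPM, 12.4, 18.7 and 23.1 CPM and 14.5, 11.3 and 15.4 CPM in the same order. The highest and the lowest mouse differed 2.04-fold, the groups overlapped, and the difference between transgenic and AOM-DSS WT mice was -0.41 (SE 0.24, interval -0.96 to 0.13, adjusted p = 0.359). Of the 10 genes only *Bcl2l1* had a wider ratio of highest to lowest mouse, at 2.23-fold, while by the SD over the 9 mice *Mcl1* was level with *Bcl2l11* (0.33 and 0.32 log2 units).

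Of 6 other BH3-only genes, *Bbc3* (PUMA), a p53 target, was called lower in AOM-DSS WT against control WT mice. It was the 1 call among the 5 that passed the filter, where 15.0% of all genes were called and 6.92% lower. It fell from 14.2, 18.7 and 16.8 CPM to 5.69, 6.94 and 10.8 (log2 fold change -1.06, SE 0.25, adjusted p = 0.0310), and stood at 14, 9.22 and 7.83 CPM in transgenic mice (-0.67 against control WT, SE 0.21, adjusted p = 0.0723). The call was lost without mouse 1, 2, 3 or 5. *Bmf* differed by -0.92 between transgenic and AOM-DSS WT mice (SE 0.31, adjusted p = 0.103). *Pmaip1* (NOXA), the antagonist of MCL1, and *Bad* were the most abundant at 65.2 and 55.3 CPM over all mice and were called in no comparison. *Bik* was not called either, and *Hrk* had no count in any mouse.

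**Figure D5:**
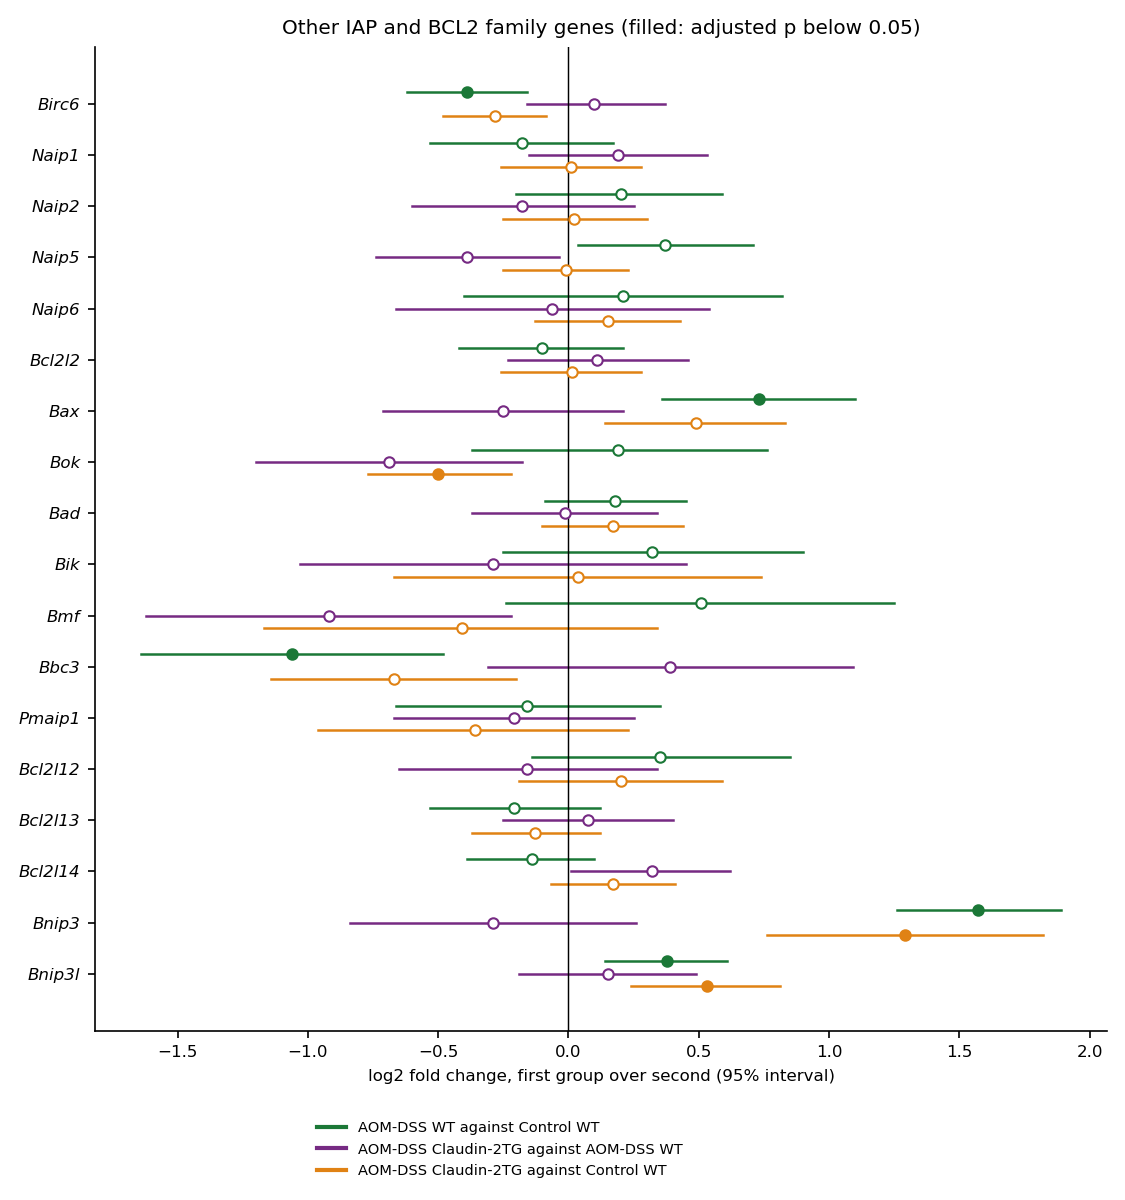
log2 fold change (x axis) with 95% interval of the other IAP and BCL2 family genes that passed the filter (y axis), in the 3 comparisons. Filled points have an adjusted p below 0.05. *Bnip3* is filled in both comparisons with control WT mice (1.57 and 1.29). The *Bcl2a1* genes are left out, because their fitted values rest on a few counts.

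The 2 genes of the wider family with calls in both treated groups were *Bnip3* and *Bnip3l*, which encode mitochondrial receptors of mitophagy and are known targets of hypoxia signalling. Of all genes, 15.0% were called in AOM-DSS WT against control WT mice and 8.04% were called higher. In transgenic against control WT mice these shares were 10.0% and 3.92%. *Bnip3* rose from 11.1, 11 and 9.64 CPM in control WT to 34.4, 29.5 and 29.1 in AOM-DSS WT mice (log2 fold change 1.57, SE 0.14, adjusted p = 0.00195) and 36.9, 20.9 and 19.6 in transgenic mice (1.29, SE 0.24, adjusted p = 0.0125). *Bnip3l* rose from 86.1, 92.7 and 82.8 to 105, 115 and 114 CPM (0.38, SE 0.10, adjusted p = 0.0451) and to 149, 123 and 103 CPM (0.53, SE 0.13, adjusted p = 0.0293). Every treated mouse was above every control mouse for both genes. The *Bnip3* call in AOM-DSS WT mice held in 14 of 14 alternatives and that in transgenic mice in 13, lost without mouse 3. The *Bnip3l* calls held in 5 and 8, and were lost without mouse 1, 2, 3, 5 or 6 in AOM-DSS WT and without mouse 1, 3, 7 or 8 in transgenic mice. *Bcl2l14*, the most abundant of this list at 121 CPM, passed in no comparison.

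Downstream of the mitochondria, *Diablo* and *Htra2*, whose products displace IAPs from caspases, differed by 0.12 or less on the log2 scale in every comparison. *Cycs* (cytochrome c), at 83.4 CPM the most abundant of the 6 genes of this list, and *Apaf1*, which form the apoptosome, were not called. *Xaf1*, an interferon-induced antagonist of XIAP, differed by -0.69 between transgenic and AOM-DSS WT mice (SE 0.22, adjusted p = 0.0850). *Sept4*, 1 isoform of which (ARTS) binds XIAP, was the 1 gene of the list called. This was 1 of 6 beside 15.0% of all genes in AOM-DSS WT against control WT mice and 9.54% between the treated groups. It rose from 1.39, 1.66 and 1.78 CPM to 5.69, 6.10 and 7.37 in AOM-DSS WT mice (2.01, SE 0.24, adjusted p = 0.00664) and was lower in transgenic than in AOM-DSS WT mice, at 1.93, 0.709 and 0.886 (-2.47, SE 0.39, adjusted p = 0.0101). The rise held in 14 of 14 alternatives, and the lower call was lost without mouse 8 or 9. *Sept4* is also expressed in stromal cells, the fibroblast sum was highest in the AOM-DSS WT mice, and its part in this result was not tested. The counts are per gene and do not single out ARTS.

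A list of 16 S phase genes served to compare *Birc5* with replication. In AOM-DSS WT against control WT mice 11 of 16 had a log2 fold change below 0, with a median of -0.18, and 1 was called, beside 15.0% of all genes. This was *Ccne1* (cyclin E1), which was higher (1.19, SE 0.33, adjusted p = 0.0478) and lost its call without mouse 2, 3, 5 or 6. Between the treated groups 15 of 16 were below 0 (transgenic against AOM-DSS WT), with a median of -0.13, whereas *Birc5* and the 20 G2 and mitosis genes were above 0, and *Ccne1* was called lower (-0.86, adjusted p = 0.0389), 1 of 16 beside 9.54% of all genes, a call lost without mouse 5, 6, 7, 8 or 9. Between transgenic and control WT mice 14 of 16 were below 0, and *Mcm5* (-0.51, adjusted p = 0.0183), *Mcm6* (-0.40, 0.0269) and *Rrm1* (-0.33, 0.0448) were called lower, 3 of 16 beside 6.07% of all genes, and all 3 calls were lost without mouse 1, 3 or 8 and with all 9 mice in 1 fit. *Pcna*, at 73.3 CPM over all mice the most abundant of the list, was not called.

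Over the 10 genes together, the median log2 fold change was 0.19 in AOM-DSS WT against control WT mice, -0.12 in transgenic against AOM-DSS WT and -0.088 in transgenic against control WT mice, beside 0.021, 0.0085 and 0.0023 over all genes tested. The median size of the log2 fold change without its sign was 0.28, 0.26 and 0.14 for the 10 genes and 0.30, 0.22 and 0.21 for all genes. In transgenic against AOM-DSS WT mice the groups did not overlap for *Mcl1* and *Birc2*, 2 of 10 beside 28.5% of all genes. For *Mcl1* this rests on a difference below the digits printed, since mice 4 and 8 both read 696 CPM. In transgenic against control WT mice they did not overlap for *Mcl1* and *Xiap*, 2 of 10 beside 31.2%.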

How the data were processed

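Total colon RNA was extracted with a Quick-RNA Mini-Prep kit and each of 9 libraries was sequenced in 2 lanes on a NovaSeq6000. The deposited values are whole-number counts per gene and lane (18 columns, 47729 genes), which the authors made with featureCounts of Subread on GRCm38 without normalization. The submitters' processing notes name HISAT2 as aligner, the study's methods TopHat2. Versions and the strand setting are not given in the sources used here. Protocol text on the treatment stands under the control samples too, so groups were taken from the treatment and genotype labels.

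Lanes of a mouse agreed within sampling noise (chi-square per degree of freedom 0.995 to 1.06) and were added up. Mice of a group differed by far more, and the study's methods state that transgenic mice were compared with littermates. The labels do not pair mice by litter, and p-values measure the spread between these mice. Symbols came from GENCODE M21 (47224 identifiers matched). Each comparison was fitted on its 6 mice with edgeR 4.0.16 in R 4.3.3 (TMM, filterByExpr with minimum count 10 and total 15, robust quasi-likelihood test), p-values were adjusted across the whole table of tested genes (Benjamini-Hochberg), and genes under an adjusted p of 0.05 were called higher or lower. Standard errors were derived from the test statistic. Intervals are 95% intervals. CPM use TMM factors over all 9 mice, and per-kilobase values the exon length in the count table. Marker and pathway lists (9 and 10, with 82 pathway genes) were written from general knowledge. The 10 genes and the lists were chosen with earlier results of these data known. Named beside the 10 genes were the called genes of a list (at most 6 for each comparison, largest change first), its 2 genes with the highest mean CPM, and the 5 genes nearest in course to *Birc5* and to *Mcl1*. Of the G2 and mitosis genes called in AOM-DSS WT against control WT mice, those with the smallest adjusted p are given with values instead. Genes named outside this rule were chosen after their values were seen. The pipeline was tested on simulated counts. Alternatives were DESeq2 1.42.0, library size only, upper quartile, no filter, a stricter filter (each mouse with 10 or more counts), 1 fit over all 9 mice, each lane alone and leaving out each mouse. Promoter windows came from RefSeq, of which the bases before the start were read. Summaries used pandas 2.3.3 and scipy 1.17.1 under Python 3.11.15, and plots matplotlib 3.10.9.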

Additional observations from a re-analysis of the deposited data

How the results depend on the processing

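Calls among the 10 genes were few under each of the 14 alternatives of a comparison. In AOM-DSS WT against control WT mice 0 were called, and leaving out a mouse gave 0 to 1 (*Birc5* without mouse 6, *Bcl2l1* without mouse 4). Of all genes, 6.72% were called without mouse 6 and 25.7% without mouse 4. In transgenic against AOM-DSS WT mice 0 were called, DESeq2 gave 1 and leaving out a mouse 0 to 1, each time *Bcl2l1*, whose log2 fold change ran from -0.83 to -0.41. In transgenic against control WT mice 1 was called (*Mcl1*, 0.54 to 0.76), also without each mouse, and 0 with all 9 mice in 1 fit, which called 445 of all genes in place of 1501. Changes of sign were limited to values near 0. *Bcl2l11* in AOM-DSS WT against control WT mice was -0.083 without mouse 6 (-0.083 to 0.34 over the left-out mice). *Bid* in transgenic against AOM-DSS WT mice was 0.017 without mouse 5 and 0.057 without mouse 8 (-0.094 to 0.057). In transgenic against control WT mice *Birc2* was 0.017 on lane 2 only, 0.059 without mouse 1, 0.0035 without mouse 8 and 0.017 without mouse 9 (-0.063 to 0.059), and *Bak1* was 0.014 without mouse 3 (-0.17 to 0.014).

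Calls among the 82 pathway genes depended more on the mice, as did those over all genes (15.0%, 9.54% and 10.0% called in the 3 comparisons). The first 2 counts include *Bcl2a1d*, and the first also *Bcl2a1a*, which passed the filter only through the AOM-DSS WT mice. In AOM-DSS WT against control WT mice 21 were called, and 3 to 24 without 1 mouse, with 7, 3, 4 and 8 without mouse 1, 2, 3 and 5, where 2310 calls over all genes fell to 631, 135, 404 and 1245. In transgenic against AOM-DSS WT mice 4 were called, 11 by DESeq2, 8 without a filter, 1 on lane 2 only, and 0 to 9 without 1 mouse, with 9, 2, 2, 0 and 0 without mouse 4, 5, 7, 8 and 9, where 1421 calls over all genes became 2894, 555, 460, 58 and 108. In transgenic against control WT mice 12 were called, 19 with library size only, 25 without a filter, 1 with all 9 mice in 1 fit, and 1 to 9 without 1 mouse, with 4, 1, 7 and 3 without mouse 1, 3, 7 and 9, where 1501 calls over all genes became 958, 525, 1383 and 813. The cause was not tested. Library size only shifted the median of all genes to -0.11 in transgenic against control WT mice, so its lower calls stand relative to that shift. The biological coefficient of variation was 0.149 to 0.218 with 3 mice a group, and calls at other depths were compared only by taking each lane alone, which changed no call among the 10 genes. No paired analysis was possible because the groups share no replicate numbers.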
